A study of Mus musculus with 16 samples.

Results

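The genes described here mark the nephron downstream of the loop of Henle's descending limb, from the thick ascending limb to the collecting duct. There were 38 of them, named as a list and sorted by the cell type that uses them, and 37 had a probe set carrying only their symbol, out of 19938 genes measured. The tissue kallikrein gene Klk1 had none and was not analysed. The 37 comprised 9 genes of the thick ascending limb, 9 of the distal convoluted and connecting tubule, 10 of principal cells and 9 of intercalated cells.

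Total RNA of mouse samples was read on 16 arrays: 3 each of secondary kidney tumors, kidney tumors, normal kidney, liver tumors and normal liver, and 1 of ES cells. The animals were reprogrammable mice, in which doxycycline switches on introduced reprogramming genes. Doxycycline was given from 4 weeks of age for 7 days and then withdrawn. Kidney tumors were taken 7 days after withdrawal. Secondary kidney tumors had been transplanted under the skin of immunodeficient mice, so they grew outside the kidney and among cells of that host. Normal kidney came from animals of the same age. Liver tumors were primary tumors of reprogrammable mice and were set against normal liver; no age or interval is given for them. The ES cells were of the 129xC57BL6 F1 background, and the mice were made from that ESC line, so tissues carry that or a mixed background. Tumors arose in chimeric animals and may hold ICR cells of the host embryo. The labels do not name the transgene's promoter. They also do not say that replicates came from separate animals, so every p-value here reflects array-to-array spread that could be partly technical.

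The thick ascending limb reabsorbs sodium, potassium and chloride without water and secretes uromodulin into the urine. The distal convoluted and connecting tubule then take up sodium chloride, calcium and magnesium under the control of WNK kinases and parathyroid hormone. In the collecting duct, principal cells absorb water and sodium in response to vasopressin and aldosterone, while intercalated cells move protons, bicarbonate and ammonia. These functions rest on transporters that are largely restricted to 1 segment or cell type, which makes the genes useful markers of differentiated tubule.

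The deposited values were linear intensities, and levels are given as their log2, on which 1 unit is a 2-fold difference. A probe's level cannot be compared with that of another gene, so each gene is compared only with itself between samples. A change was called when limma's moderated test, fitted over all genes and arrays, gave a Benjamini-Hochberg adjusted p under 0.05. Changes carry the standard error of that fit. The median change over all genes lay between -0.13 and 0.03 in the 6 comparisons.

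Several arrays stood out in genes of muscle, fat or kidney, or in Xist. The source of these signals was not tested. Skeletal muscle genes, a list chosen after the values were seen, had a median level of 10.97 on secondary kidney tumor 1, against 6.80 to 7.40 on all other tissue arrays, secondary tumors 2 and 3 included. Adipoq, an adipocyte hormone, stood at 9.87 on secondary kidney tumor 1, 9.98 on normal kidney 2 and 10.38 on normal liver 1, and at most 6.16 on every other array. Normal liver 1 carried kidney transcripts, with Slc34a1, the proximal tubule phosphate transporter, at 11.29 against 7.75 on normal liver 3. Xist, transcribed from the inactive X of female cells, was at 10.84 and 10.19 on kidney tumors 2 and 3 and 10.45 and 11.35 on liver tumors 2 and 3, against 5.60 to 6.31 on the other tissue arrays. Several medians and changes are also given without these arrays. Not every call that ends without them is named.

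All 37 members were higher in normal kidney than in normal liver at an adjusted p under 0.05, a direction called for 21.4% of all genes (37.8% in either direction). No member was lower at an unadjusted p under 0.05 with limma, against a called decrease in 16.4% of all genes. The median difference was 3.24, and it was largest for Slc12a1, the sodium-potassium-chloride cotransporter of the thick limb, at 5.67 ± 0.44 (SE). The smallest differences belonged to Nr3c2, the mineralocorticoid receptor, at 0.53 ± 0.16, and Slc14a2, the urea transporter of the inner medullary duct, at 0.63 ± 0.13. Nr3c2 did not pass without normal kidney 2 or without normal liver 1 (limma adjusted p 0.082 and 0.064), and Rhbg, at 0.74 ± 0.23, did not pass without normal kidney 1 or 2 or normal liver 1 or 2 (limma adjusted p 0.051 to 0.063).

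In secondary kidney tumors 36 of the 37 members were lower than in normal kidney, where 38.7% of all genes were called lower (68.6% in either direction). The median change over the members was -3.84, against -0.12 over all genes. No member was called higher by limma, and 0 were higher at an unadjusted p under 0.05, against a called rise in 29.9% of all genes. The one member that passed in neither direction was Stk39. By segment, the medians were -5.27 for thick limb genes, -2.44 for distal and connecting tubule genes, -2.86 for principal cell genes and -4.30 for intercalated cell genes. The possible size of a decrease depends on the signal in normal kidney, where means ran from 7.41 for Slc14a2 to 13.20 for Umod. These medians therefore do not rank how completely the segments' genes were lost. In a bulk sample, fewer cells of a type and less RNA per cell cannot be told apart.

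In kidney tumors 32 of the 37 members were lower than in normal kidney, beside 28.1% of all genes (49.8% in either direction), and the median change was -1.70. With limma no member was called higher and 0 were higher at an unadjusted p under 0.05, beside a called rise in 21.7% of all genes. The 5 that did not pass were Umod, Slc12a3, Pvalb, Stk39 and Hsd11b2. Segment medians were -1.52 for thick limb, -1.02 for distal and connecting tubule, -1.69 for principal cell and -1.88 for intercalated cell genes. Without kidney tumors 2 and 3, the arrays with Xist signal, the median change was -1.0. This fit leaves kidney tumor 1 alone, assumed to vary like the other groups. Of the 3 kidney tumors, kidney tumor 1 was highest for 28 of 37 members, against 38.5% of all genes. Members whose call ended in that fit were Slc12a1 (-0.80), Ptger3 (-0.91), Cdh16 (-1.0), Fxyd2 (-0.88), Trpv5 (-0.04), Wnk1 (-0.41), Aqp2 (-0.58), Scnn1a (-0.72) and Slc14a2 (-0.41). Both tumor groups were set against the same 3 normal kidney arrays.

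Set directly against kidney tumors, secondary kidney tumors had 28 members lower, beside 17.4% of all genes (36% in either direction), with a median difference of -1.94. In limma 0 members were called higher, and 0 were higher at an unadjusted p under 0.05, beside a called rise in 18.5% of all genes. All 9 intercalated cell genes were lower, 7 of 9 thick limb genes, 5 of 9 distal and connecting tubule genes and 7 of 10 principal cell genes. The 9 genes without a called difference were Ppp1r1b, Ptger3, Pvalb, Wnk1, Stk39, Slc8a1, Aqp3, Nr3c2 and Slc14a2.

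**Figure D1:**
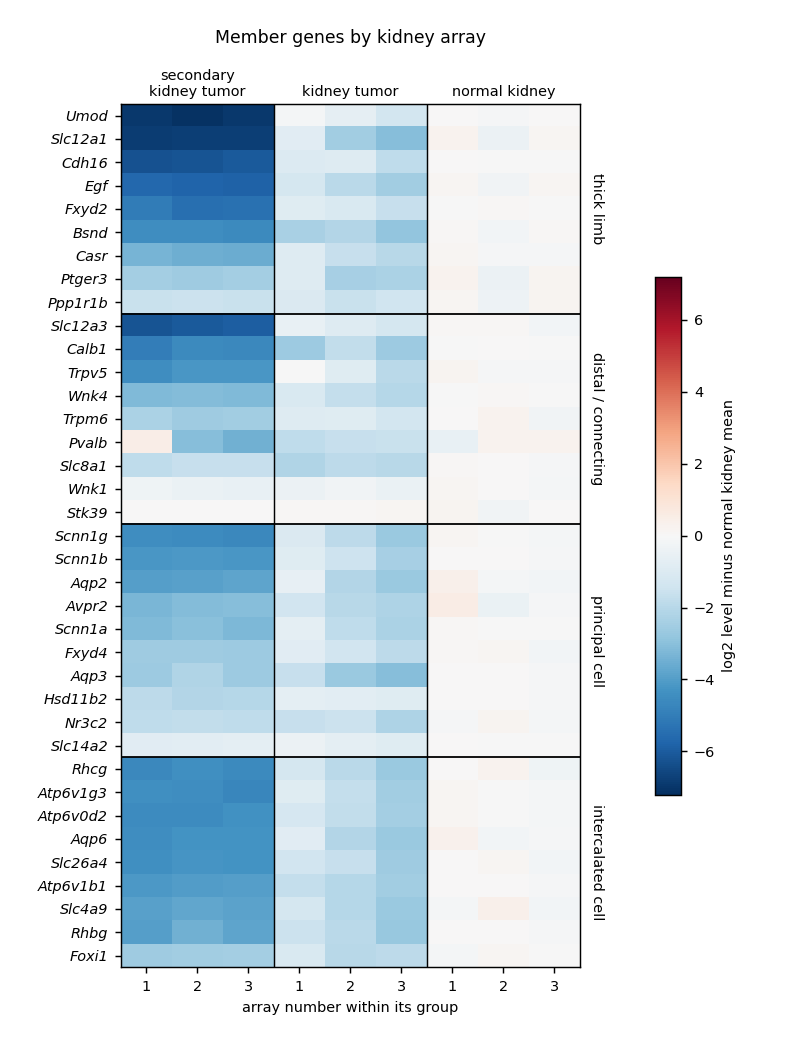
Log2 level of each of the 37 genes on the 9 kidney arrays, minus its mean over the 3 normal kidney arrays; rows are grouped by segment and columns are arrays. The secondary kidney tumors are dark and alike in most genes, with Wnk1, Stk39 and Slc14a2 pale and Pvalb split, while the kidney tumors are paler and differ among themselves.

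**Figure D2:**
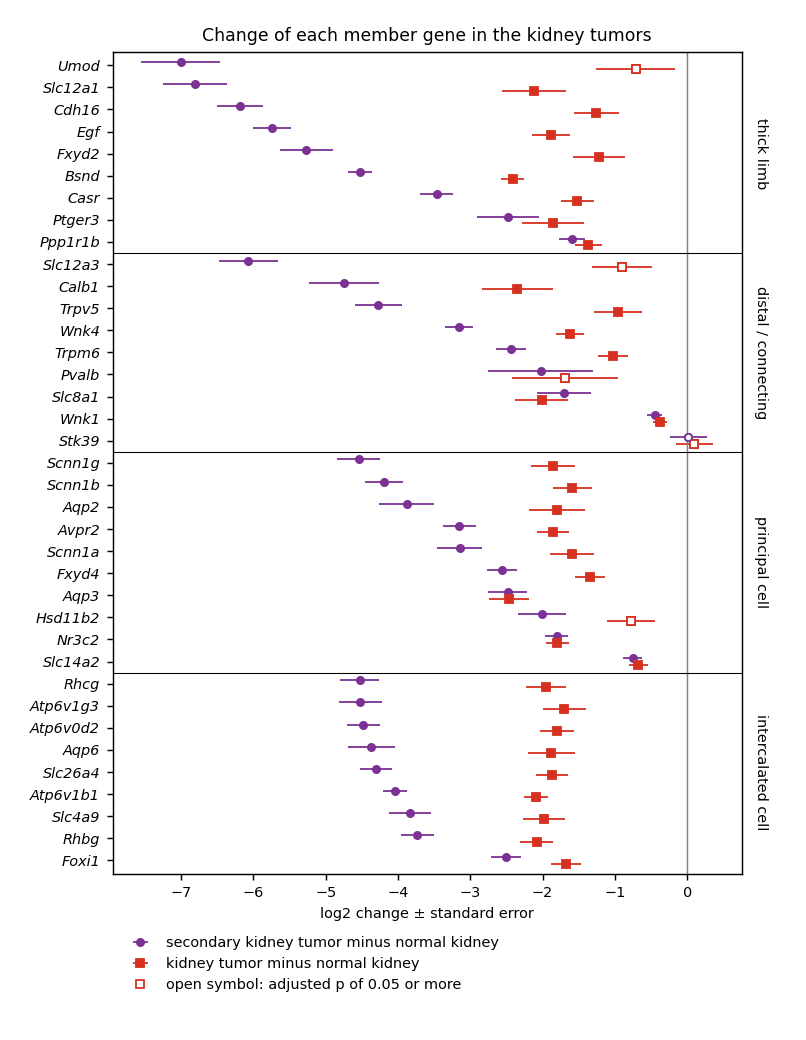
Log2 change ± standard error of each gene in secondary kidney tumors (circles) and kidney tumors (squares), both minus normal kidney; open symbols have an adjusted p of 0.05 or more. Umod lies at -7.00 in secondary tumors and -0.71 in kidney tumors, and Stk39 at 0.01 and 0.10.

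Among thick ascending limb genes, Umod, which encodes uromodulin, the main protein of normal urine, had the largest decrease in secondary tumors and the smallest in kidney tumors. Its level was 6.23, 6.08 and 6.28 in secondary kidney tumors and 13.05, 12.54 and 11.88 in kidney tumors, against 13.24, 13.13 and 13.24 in normal kidney. All 3 secondary tumors thus lay far below every kidney tumor, and the kidney tumors lay just below the normal kidneys without overlap. The change was -7.00 ± 0.54 in secondary tumors (128-fold lower, limma adjusted p 1.8e-07) and -0.71 ± 0.54 in kidney tumors (limma adjusted p 0.29), which did not pass. That standard error pools all groups, and Umod varied most in normal liver (SD 1.34, against 0.06 in normal kidney). In a fit on kidney tumor and normal kidney arrays alone the limma adjusted p was 0.066. The ES cell array gave 6.35, just above the secondary tumors.

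Slc12a1, the furosemide-sensitive cotransporter that drives salt uptake in the thick limb, was at 5.72, 5.76 and 5.75 in secondary kidney tumors and 11.76, 10.02 and 9.51 in kidney tumors, against 12.82, 12.14 and 12.69 in normal kidney. Kidney tumor 1 lay just below the lowest normal kidney, and the other two kidney tumors were well below both. The decrease was 112-fold in secondary tumors (-6.81 ± 0.44, limma adjusted p 3.8e-08) and 4.36-fold in kidney tumors (-2.12 ± 0.44, limma adjusted p 0.0014). Without kidney tumors 2 and 3 the kidney tumor change was -0.80 and did not pass (limma adjusted p 0.12).

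Bsnd encodes barttin, the subunit that brings chloride channels to the basolateral membrane. It had the largest decrease of the segment in kidney tumors, with levels of 6.18, 6.19 and 6.08 in secondary tumors and 8.35, 8.59 and 7.84 in kidney tumors, against 10.76, 10.48 and 10.78 in normal kidney. The groups were well apart on every array, with changes of -4.52 ± 0.16 and -2.41 ± 0.16. Ppp1r1b, a phosphatase inhibitor regulated by dopamine signalling, changed least in secondary tumors, at 7.30, 7.36 and 7.35 in secondary tumors and 7.88, 7.31 and 7.49 in kidney tumors, against 9.06, 8.58 and 9.15 in normal kidney. The tumor groups overlapped for this gene, and their difference of -0.22 ± 0.18 did not pass.

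The other 5 genes of the segment were lower in both tumor groups, beside 38.7% of all genes in secondary tumors and 28.1% in kidney tumors. Cdh16, the kidney-specific cadherin, and Fxyd2, a regulatory subunit of the sodium pump, changed by -6.19 ± 0.31 and -5.27 ± 0.36 in secondary tumors and by -1.26 ± 0.31 and -1.22 ± 0.36 in kidney tumors. Egf, which the distal nephron secretes as a membrane-bound precursor, changed by -5.74 ± 0.27 and -1.88 ± 0.27. For Casr, the calcium-sensing receptor of the basolateral membrane, the changes were -3.47 ± 0.23 and -1.52 ± 0.23. Ptger3, a prostaglandin E receptor, changed by -2.48 ± 0.43 and -1.85 ± 0.43, and its level in kidney tumor 1, 8.83, was well above 7.37 and 7.45 in the other two.

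Distal convoluted and connecting tubule genes spread most widely, from -6.07 to 0.01 in secondary tumors. Slc12a3, the thiazide-sensitive sodium chloride cotransporter, was at 6.51, 6.65 and 6.79 in secondary kidney tumors and 12.18, 11.81 and 11.46 in kidney tumors, against 12.82, 12.79 and 12.55 in normal kidney. Every kidney tumor lay below every normal kidney by a small margin, while the secondary tumors were far lower. The change was -6.07 ± 0.41 in secondary tumors (67.1-fold lower, limma adjusted p 5.6e-08) and -0.91 ± 0.41 in kidney tumors (limma adjusted p 0.087). In a fit on the kidney tumor and normal kidney arrays alone the kidney tumor difference passed, with a limma adjusted p of 0.0069, within a range of 0.0069 to 0.56 over all alternatives.

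The calcium and magnesium handling genes were lower in both tumor groups. Calb1, the calcium buffer calbindin, was at 7.55, 7.96 and 7.88 in secondary tumors and 9.91, 10.74 and 9.92 in kidney tumors, against 12.50, 12.60 and 12.54 in normal kidney. Its decrease of 2.35 ± 0.49 was the largest of the segment in kidney tumors, and in secondary tumors it changed by -4.75 ± 0.49. Trpv5, the apical calcium channel, changed by -4.27 ± 0.33 in secondary tumors. Its change of -0.96 ± 0.33 in kidney tumors (limma adjusted p 0.027) rested on kidney tumors 2 and 3: levels were 10.25, 9.40 and 8.36, against 10.47, 10.19 and 10.23 in normal kidney. Kidney tumor 1 lay inside the normal range. Without kidney tumor 3 the change was -0.47 and no longer passed (limma adjusted p 0.091), and without kidney tumors 2 and 3 it was -0.04. It also missed the threshold without kidney tumor 2, normal kidney 1 or normal kidney 3 (limma adjusted p 0.055, 0.083 and 0.056) and in a fit on those 2 groups alone (limma adjusted p 0.11). Trpm6, the magnesium channel, changed by -2.44 ± 0.21 and -1.02 ± 0.21.

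Slc8a1, the basolateral sodium-calcium exchanger, changed by -1.71 ± 0.37 in secondary tumors and -2.01 ± 0.37 in kidney tumors. It was the only member whose mean was higher in secondary than in kidney tumors, with levels of 8.37, 8.52 and 8.49 in secondary tumors against 8.01, 8.30 and 8.15 in kidney tumors. The difference of 0.31 ± 0.37 did not pass. Its 2 probe sets gave -1.71 and -1.68 in secondary tumors and -2.01 and -2.38 in kidney tumors.

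Pvalb, the parvalbumin of the early distal convoluted tubule, is also abundant in fast muscle fibres and in some neurons. It was at 10.48, 6.96 and 6.56 in secondary kidney tumors and 8.20, 8.39 and 8.42 in kidney tumors, against 9.51, 10.28 and 10.28 in normal kidney. Secondary kidney tumor 1 was above all normal kidneys and the other two secondary tumors below every kidney tumor. That array alone also carried the skeletal muscle genes, with Acta1 at 12.65 against 8.24 and 8.41 and Ckm at 11.27 against 6.97 and 6.88 on secondary tumors 2 and 3; their part in the result was not tested. The change of -2.03 ± 0.73 passed (limma adjusted p 0.025) but had an adjusted p of 0.11 without secondary tumor 2 and 0.12 without secondary tumor 3, and of 0.068 and 0.071 without normal kidney 2 and 3. In a fit on those 2 groups alone it was 0.097. Without secondary tumor 1, Pvalb was lower in secondary than in kidney tumors by -1.58 (limma adjusted p 3.4e-04), against -0.34 ± 0.73 with it. Every kidney tumor lay below every normal kidney, but the change of -1.69 ± 0.73 did not pass (limma adjusted p 0.071). It passed in a fit on kidney tumor and normal kidney arrays alone (limma adjusted p 0.0011). With arrays centred on their medians it passed as well (limma adjusted p 0.044), but in no other alternative.

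Of the 9 genes of the segment, the kinases Stk39 and Wnk1 changed least. Stk39, the SPAK kinase that phosphorylates both Slc12a1 and Slc12a3, was at 10.20, 10.20 and 10.21 in secondary kidney tumors and 10.29, 10.27 and 10.32 in kidney tumors, against 10.41, 9.95 and 10.21 in normal kidney. Both tumor groups lay inside the range of the normal kidneys. Its changes of 0.01 ± 0.26 and 0.10 ± 0.26 did not pass (limma adjusted p 0.97 and 0.76), and the kidney tumor value was -0.02 when arrays were centred on their medians. Wnk1, a kinase upstream of Stk39 that has a kidney-specific short form, was at 11.66, 11.49 and 11.44 in secondary tumors and 11.57, 11.71 and 11.52 in kidney tumors, against 12.10, 11.99 and 11.86 in normal kidney.

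These Wnk1 differences were small but lay outside the spread of the normal arrays, at -0.45 ± 0.10 and -0.38 ± 0.10. A dimmer probe set of Wnk1 gave 0.10 in secondary tumors (limma adjusted p 0.76) and -0.71 in kidney tumors (limma adjusted p 0.048), and averaging both probe sets ended the call in secondary tumors (-0.18, limma adjusted p 0.33). Wnk4, the isoform concentrated in the distal convoluted tubule, changed by -3.16 ± 0.19 in secondary tumors and -1.62 ± 0.19 in kidney tumors.

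**Figure D3:**
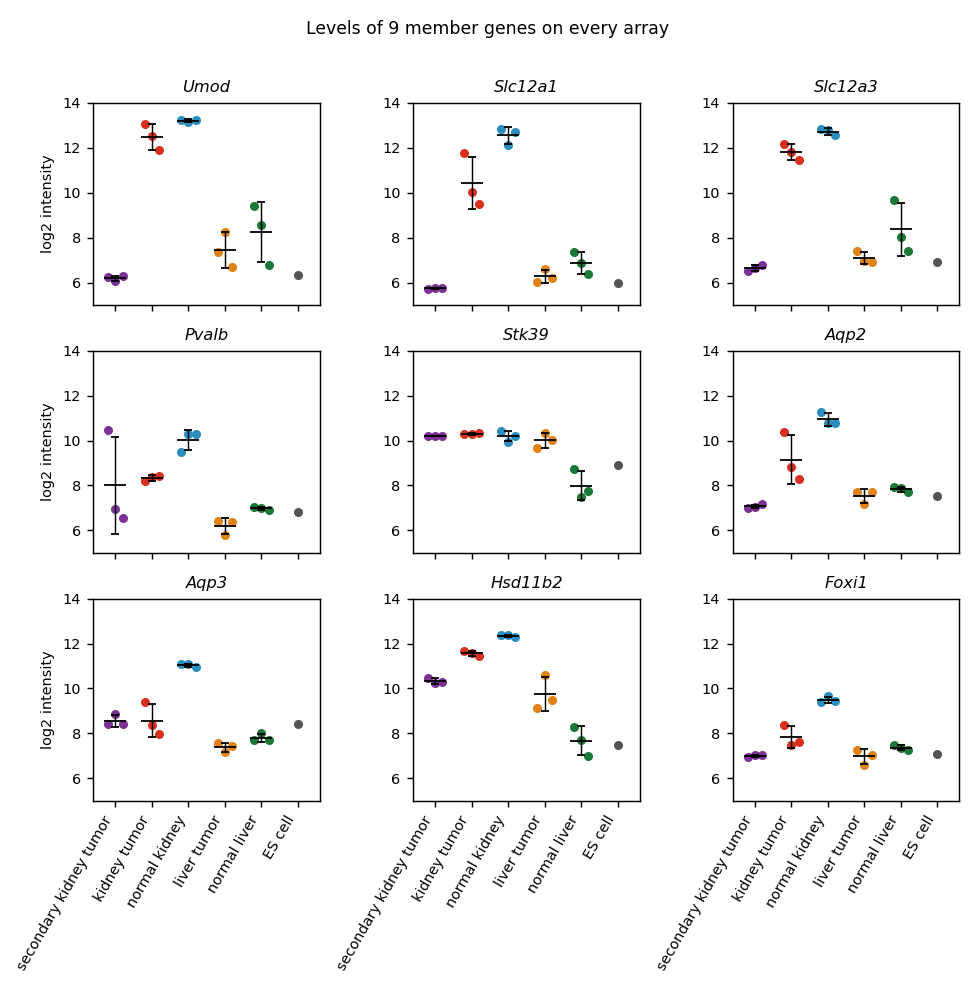
Log2 intensity of 9 genes on each of the 16 arrays by group; points are arrays and bars give the mean ± SD of 3 arrays, with 1 ES cell array. Umod and Slc12a3 lie near the ES cell array in secondary tumors and near normal kidney in kidney tumors, Stk39 in both tumor groups lies inside the range of normal kidney, and Pvalb has 1 high secondary tumor.

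Of the principal cell genes, all 10 were lower in secondary kidney tumors and 9 of 10 in kidney tumors, beside 38.7% and 28.1% of all genes. Aqp2, the water channel that vasopressin inserts into the apical membrane, was at 7.01, 7.03 and 7.16 in secondary kidney tumors and 10.36, 8.82 and 8.27 in kidney tumors, against 11.29, 10.79 and 10.76 in normal kidney. The groups did not overlap, and kidney tumor 1 stood well above the other two kidney tumors. The change was -3.88 ± 0.39 in secondary tumors (14.7-fold lower, limma adjusted p 1.6e-06) and -1.80 ± 0.39 in kidney tumors (3.48-fold lower, limma adjusted p 0.0017). Without kidney tumors 2 and 3 the kidney tumor change was -0.58 and did not pass (limma adjusted p 0.092). Avpr2, the vasopressin receptor that controls it, changed by -3.16 ± 0.23 and -1.86 ± 0.23.

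Aqp3, the basolateral water channel of the same cells, did not follow that order. Its level was 8.40, 8.86 and 8.40 in secondary tumors and 9.38, 8.36 and 7.97 in kidney tumors, against 11.07, 11.07 and 10.96 in normal kidney. The tumor groups overlapped, with changes of -2.48 ± 0.27 and -2.47 ± 0.27 from normal kidney. The difference between them was -0.02 ± 0.27 (limma adjusted p 0.97), and it was -0.83 (limma adjusted p 0.011) when kidney tumors 2 and 3 were left out. The ES cell array gave 8.42. Aqp3 is also expressed by basal cells of stratified epithelia. Of 9 genes of a keratinocyte list, 8 were higher in secondary than in kidney tumors, beside a called rise in 18.5% of all genes. Their median level was 9.02 to 9.66 in secondary tumors, against 6.55 to 6.67 in kidney tumors. Their part in the result was not tested.

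The 3 subunits of the epithelial sodium channel fell in both groups. Scnn1g had the largest principal cell decrease in secondary tumors, with levels of 6.67, 6.61 and 6.53 in secondary tumors and 10.13, 9.26 and 8.48 in kidney tumors, against 11.29, 11.12 and 11.03 in normal kidney. These groups were separate, at -4.55 ± 0.30 and -1.86 ± 0.30. Scnn1b changed by -4.19 ± 0.27 and -1.59 ± 0.27. Scnn1a, the subunit shared with airway and other epithelia, changed by -3.15 ± 0.31 and -1.59 ± 0.31 and stayed 1.18 above the ES cell array in secondary tumors.

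Of the genes that make these cells respond to aldosterone, Hsd11b2 stayed furthest above the ES cell array in secondary tumors. This enzyme inactivates glucocorticoid so that the mineralocorticoid receptor answers to aldosterone. It was at 10.48, 10.24 and 10.29 in secondary tumors and 11.66, 11.58 and 11.45 in kidney tumors, against 12.38, 12.36 and 12.28 in normal kidney. The 3 groups were separate and tight, and the secondary tumors stayed 2.85 above the ES cell array at 7.49. The change was -2.01 ± 0.33 in secondary tumors (limma adjusted p 1.6e-04) and -0.78 ± 0.33 in kidney tumors (limma adjusted p 0.069). The kidney tumor change passed when arrays were centred on their medians (-0.89, limma adjusted p 0.028) and in the fit on those 2 groups alone (limma adjusted p 6.1e-04), within a range of 6.1e-04 to 0.37 over all alternatives.

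Nr3c2 itself was at 6.89, 6.90 and 6.89 in secondary tumors and 7.04, 7.16 and 6.50 in kidney tumors, against 8.62, 8.91 and 8.56 in normal kidney. The tumor groups overlapped and differed by -0.01 ± 0.16, while both were below normal kidney by -1.81 ± 0.16 and -1.80 ± 0.16. Fxyd4, a regulator of the sodium pump in the collecting duct, changed by -2.57 ± 0.21 and -1.35 ± 0.21. Slc14a2 changed least, at 6.60, 6.66 and 6.71 in secondary tumors and 7.00, 6.69 and 6.52 in kidney tumors, against 7.45, 7.40 and 7.39 in normal kidney. Its changes of -0.75 ± 0.13 and -0.68 ± 0.13 passed, but the normal kidney level was only 0.63 above normal liver.

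Intercalated cell genes moved most evenly, at -4.53 to -2.50 in secondary tumors and -2.09 to -1.68 in kidney tumors. All 9 were lower in both tumor groups, beside 38.7% of all genes in secondary tumors and 28.1% in kidney tumors. Rhcg, an apical ammonia transporter, had the largest decrease in secondary tumors, with levels of 6.43, 6.63 and 6.47 in secondary tumors and 9.77, 9.12 and 8.36 in kidney tumors, against 11.10, 11.32 and 10.71 in normal kidney. The groups did not overlap, and the changes were -4.53 ± 0.28 and -1.96 ± 0.28. Rhbg, its basolateral relative, changed by -3.73 ± 0.23 and -2.08 ± 0.23.

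The proton pump genes gave similar values. Atp6v1b1, the subunit whose loss causes distal renal tubular acidosis in humans, was at 6.97, 7.10 and 7.14 in secondary tumors and 9.39, 9.08 and 8.62 in kidney tumors, against 11.16, 11.15 and 11.05 in normal kidney. Its decrease in kidney tumors, 2.09 ± 0.16, was the largest of the cell type there, and it changed by -4.04 ± 0.16 in secondary tumors. Atp6v0d2 and Atp6v1g3 changed by -4.48 ± 0.23 and -4.52 ± 0.30 in secondary tumors and by -1.80 ± 0.23 and -1.70 ± 0.30 in kidney tumors. Of the anion carriers, Slc26a4, the pendrin of type B cells, changed by -4.30 ± 0.22 and -1.87 ± 0.22 and Slc4a9 by -3.84 ± 0.29 and -1.98 ± 0.29. Aqp6, a channel of intracellular vesicles, changed by -4.37 ± 0.33 and -1.88 ± 0.33.

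Foxi1, the forkhead factor required for intercalated cell identity in mice, changed least of the cell type in both groups. It was at 6.93, 7.02 and 7.03 in secondary kidney tumors and 8.38, 7.48 and 7.59 in kidney tumors, against 9.38, 9.65 and 9.46 in normal kidney. The groups were separate on every array, although the secondary tumors and the lower kidney tumors were close. The change was -2.50 ± 0.21 in secondary tumors (5.67-fold lower, limma adjusted p 3.1e-07) and -1.68 ± 0.21 in kidney tumors (3.20-fold lower, limma adjusted p 2.4e-05). Its normal kidney level was 2.13 ± 0.21 above normal liver, a smaller contrast than the intercalated cell median of 3.65.

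The ES cell array gave a level for each gene in cells that are no nephron. In secondary kidney tumors 31 of the 37 members had a mean within 1 unit of that array, and the other 6 were above it. These 6, named after their values were seen, were Hsd11b2 by 2.85, Calb1 by 2.31, Slc8a1 by 2.29, Stk39 by 1.27, Pvalb by 1.20 and Scnn1a by 1.18. For Pvalb this rested on secondary kidney tumor 1, at 10.48. Secondary tumors 2 and 3 were at 6.96 and 6.56, near the ES cell array at 6.80. In kidney tumors 28 members were more than 1 unit above the ES cell array. With a single ES cell array no test was made. The same shares over all genes were not counted, so these counts alone do not set the members apart.

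Promoter sequence was compared as a feature that the choice of members did not use. RefSeq (GRCm38.p6) start-site windows were matched by symbol for 26 of the 37 members, and CG dinucleotides, the pairs that DNA methylation can modify, were counted in the 250 bases before each start and averaged where a gene had several starts; CG reads the same on both strands. The members without a window were Ppp1r1b, Bsnd, Cdh16, Fxyd2, Calb1, Scnn1a, Hsd11b2, Slc14a2, Slc4a9, Atp6v0d2 and Rhbg. Stk39 and Wnk1 had the most CG pairs, 43 and 26. Their 250 bases reach into the annotated gene, and the 123 and 210 bases before it hold 22 and 23. Umod and Avpr2 had 0, with changes of -7.00 and -3.16 in secondary tumors and -0.71 and -1.86 in kidney tumors. Umod, Aqp2 and Foxi1, each from another cell type, and these 2 kinases are shown with CG in capitals, cut where the annotated gene begins, so that the kinases are shown over 123 and 210 bases.
Umod, thick limb, chr7:119479263-119479512, minus strand: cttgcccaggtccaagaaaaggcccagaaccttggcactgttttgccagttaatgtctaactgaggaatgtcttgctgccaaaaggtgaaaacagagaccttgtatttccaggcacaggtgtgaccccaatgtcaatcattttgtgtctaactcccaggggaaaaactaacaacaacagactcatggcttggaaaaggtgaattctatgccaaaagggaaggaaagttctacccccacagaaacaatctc
Aqp2, principal cell, chr15:99578806-99579055, plus strand: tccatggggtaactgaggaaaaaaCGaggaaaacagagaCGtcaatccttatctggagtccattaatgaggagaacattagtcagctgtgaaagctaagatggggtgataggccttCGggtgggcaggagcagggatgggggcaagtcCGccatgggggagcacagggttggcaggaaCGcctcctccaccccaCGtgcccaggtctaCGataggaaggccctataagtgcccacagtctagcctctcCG
Foxi1, intercalated cell, chr11:34208090-34208339, minus strand: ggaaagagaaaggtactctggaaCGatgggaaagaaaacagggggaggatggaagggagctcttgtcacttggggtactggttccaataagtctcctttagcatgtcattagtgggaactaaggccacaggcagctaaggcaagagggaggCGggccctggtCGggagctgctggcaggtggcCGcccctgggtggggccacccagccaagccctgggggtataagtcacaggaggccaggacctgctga
Wnk1, distal tubule, chr6:120038696-120038905, minus strand: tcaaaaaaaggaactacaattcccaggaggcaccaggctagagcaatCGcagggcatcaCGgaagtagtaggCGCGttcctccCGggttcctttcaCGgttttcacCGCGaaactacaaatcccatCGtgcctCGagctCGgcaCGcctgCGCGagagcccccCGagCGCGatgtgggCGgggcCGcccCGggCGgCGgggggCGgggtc
Stk39, distal tubule, chr2:68472109-68472231, minus strand: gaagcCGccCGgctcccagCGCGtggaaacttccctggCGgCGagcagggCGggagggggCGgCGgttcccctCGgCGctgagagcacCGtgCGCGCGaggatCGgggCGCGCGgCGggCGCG
The stretch before Umod holds 0 CG pairs, that before Foxi1 4 and that before Aqp2 8, against 23 in the 210 bases shown before Wnk1 and 22 in the 123 bases shown before Stk39.

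The median member had 7 CG pairs, against 6 over all 32817 windows, and 34.6% of members had at least 10, against 37.8% of windows. Across the 26 genes, which share arrays and are not independent replicates, CG pairs and the change in secondary kidney tumors had a Spearman correlation of 0.54. It was 0.41 over the 24 genes left without Stk39 and Wnk1, and 0.16 over all 15614 genes with a window and a probe set. For the change in kidney tumors it was -0.05, and for the level in normal kidney -0.11. The median change in secondary tumors was -2.48 for the 9 genes with at least 10 CG pairs and -4.19 for the other 17, a cut chosen after the values were seen; in kidney tumors these medians were -1.80 and -1.70.

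**Figure D4:**
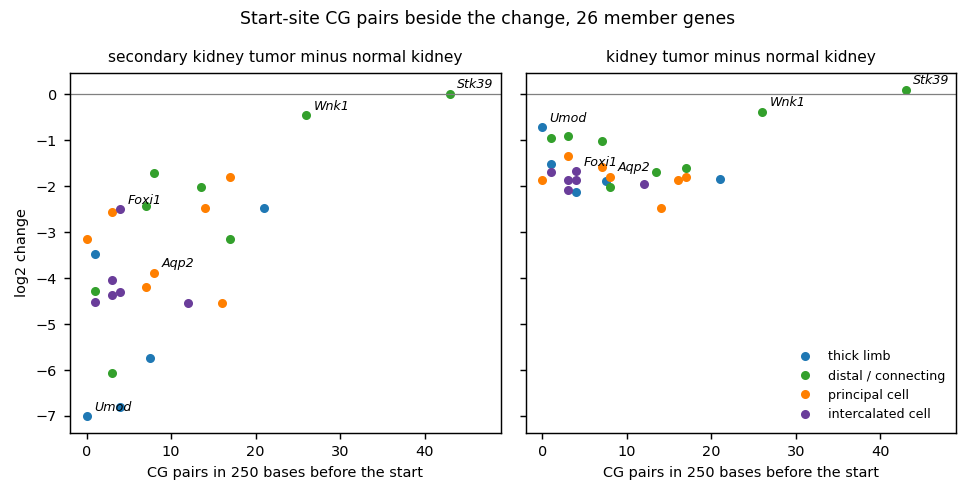
CG pairs in the 250 bases before the RefSeq start (horizontal axis) beside the log2 change in secondary kidney tumors (left panel) and kidney tumors (right panel), both minus normal kidney; points are 26 genes coloured by segment. Stk39 and Wnk1, whose 250 bases reach into the annotated gene, stand apart at the right near 0 in both panels. The spread of the remaining genes is wide in secondary tumors and narrow in kidney tumors.

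The 3 kidney tumors differed from each other in the same direction for most members. Kidney tumor 1 had the highest level of the 3 for 28 of 37 members (75.7%, against 38.5% of all genes), and kidney tumor 3 the lowest for 30 of 37 (81.1%, against 32.6% of all genes). The median of the members, relative to the normal kidney mean, was -1.0, -1.74 and -2.20 on kidney tumors 1, 2 and 3. It was -3.94, -3.73 and -3.80 on secondary tumors 1, 2 and 3, so these were close to each other. All 9 intercalated cell genes were highest on kidney tumor 1, and all 10 principal cell genes were lowest on kidney tumor 3.

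Other lists moved with that difference between arrays. Of all genes, 38.7% were called lower and 29.9% higher in secondary tumors, and 28.1% and 21.7% in kidney tumors. Of 14 proximal tubule genes, 14 were lower in secondary tumors and 8 in kidney tumors than in normal kidney. Their summed intensity was 1728 to 2907 in secondary tumors and 56024, 50475 and 28961 on kidney tumors 1, 2 and 3, against 125717 to 132799 in normal kidney. Neural genes ran the other way, with 12 of 12 higher in secondary tumors and 7 of 12 in kidney tumors. They summed to 25965 to 34170 in secondary tumors and 4073, 6519 and 8776 on kidney tumors 1, 2 and 3, against 1195 to 1376 in normal kidney. Macrophage genes, with 7 of 9 higher in both tumor groups, summed to 8174 to 15828 in secondary tumors and 8652 to 9628 in kidney tumors, against 2798 to 3378 in normal kidney. Endothelial genes were lower for 7 of 8 in secondary tumors and 3 of 8 in kidney tumors, the latter near the share of all genes. They summed to 3864 to 4909 in secondary tumors and 5562 to 7463 in kidney tumors, against 9685 to 10092 in normal kidney. The lowest intensity of any gene was 20.7, so no marker is at 0, and the part of these lists in the results was not tested.

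Transport genes of the same segments outside the 37 gave similar counts. Of 27 measured, 22 were lower and 1 higher in secondary kidney tumors (median -2.62), beside 38.7% lower and 29.9% higher of all genes. In kidney tumors 21 were lower and 1 higher (median -1.47), beside 28.1% and 21.7% of all genes. The largest changes in secondary tumors were in Kcnj1, the potassium channel of thick limb and principal cells, at -6.28 ± 0.34, Kl, the FGF23 co-receptor klotho, at -6.12 ± 0.35, and Atp6v0a4, a proton pump subunit, at -4.84 ± 0.29. In kidney tumors they were in Cldn10, a paracellular cation pore, at -2.88 ± 0.38, Oxgr1, a ketoglutarate receptor, at -2.55 ± 0.29, and Kl at -2.44 ± 0.35. The genes called higher were Aqp4 in secondary tumors, by 0.89 ± 0.35, and Cldn4 in kidney tumors, by 1.16 ± 0.34. Both were named after their values were seen.

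Among 16 genes of the aldosterone and WNK pathways, 7 were lower and 2 higher in secondary kidney tumors (median -0.45), beside 38.7% lower and 29.9% higher of all genes. In kidney tumors 6 were lower and 2 higher (median -0.10), beside 28.1% and 21.7%, so the shares lower were near those of all genes. Prss8, a protease that activates the epithelial sodium channel, changed by -3.58 ± 0.24 in secondary tumors, and Usp2, a deubiquitinase under circadian control, by -2.43 ± 0.32 in secondary and -2.12 ± 0.32 in kidney tumors. Klhl3, the adaptor that targets WNK kinases for degradation, changed by -1.71 ± 0.17 in kidney tumors. Wnk3 rose in both: it was at 9.67, 9.70 and 9.83 in secondary tumors and 9.38, 9.76 and 9.96 in kidney tumors, against 6.29, 6.43 and 6.32 in normal kidney. Its rises of 3.38 ± 0.29 and 3.35 ± 0.29 brought it above the ES cell array at 8.79, and the other gene called higher was Wnk2, by 1.92 ± 0.12 and 0.60 ± 0.12.

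Of 23 regulators of distal tubule and ureteric bud, 14 were lower and 2 higher in secondary kidney tumors (median -1.0), beside 38.7% lower and 29.9% higher of all genes. In kidney tumors 13 were lower and 2 higher (median -0.76), beside 28.1% and 21.7% of all genes. Pax8, a nephron lineage factor, was at 7.53, 8.08 and 8.09 in secondary tumors and 11.70, 10.78 and 10.08 in kidney tumors, against 11.68, 11.44 and 11.38 in normal kidney. It changed by -3.60 ± 0.31 in secondary tumors and was lower there than in kidney tumors by -2.95 ± 0.31. Tfcp2l1, a collecting duct factor that is also used by ES cells, changed by -3.69 ± 0.34 and Emx2, required for urogenital development in mice, by -3.06 ± 0.21 in secondary tumors. Emx2, Esrrg and Esrrb led in kidney tumors, at -1.73 ± 0.21, -1.70 ± 0.16 and -1.49 ± 0.26. The genes called higher were Ret, the ureteric bud receptor, by 2.41 ± 0.24 in secondary and 1.19 ± 0.24 in kidney tumors, Grhl2 by 0.76 ± 0.19 in secondary tumors and Lhx1 by 1.05 ± 0.32 in kidney tumors.

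In the liver, 10 members were lower and 4 higher in tumors than in normal liver, where 30.7% of all genes were called lower and 21.5% higher (52.3% in either direction). The share of members called lower, 10 of 37, was no higher than over all genes. The median change was -0.43, against -0.13 over all genes. Without normal livers 1 and 2, the arrays with the most proximal tubule signal, the median was -0.23 and some calls ended. Some also ended without liver tumors 2 and 3, the arrays with Xist signal, a fit that leaves 1 liver tumor. Without liver tumor 2 or 3 alone, 5 and 6 members were called lower. The shares of all genes in those fits are not given here. Hepatocyte genes summed to 47066 to 67797 in liver tumors, against 82250 to 84516 in normal liver; their part in these results was not tested.

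Of the collecting duct genes, 3 were lower in liver tumors by the largest margins. Scnn1a was at 7.49, 7.41 and 6.74 in liver tumors, against 9.93, 10.13 and 9.62 in normal liver, a change of -2.68 ± 0.31 (6.41-fold lower, limma adjusted p 2.0e-05). Rhbg was at 8.62, 8.81 and 8.61 in liver tumors, against 10.04, 10.06 and 10.38 in normal liver, a change of -1.48 ± 0.23 (limma adjusted p 1.7e-04). It serves ammonium uptake in the hepatocytes around the central vein. Nr3c2 was at 7.32, 7.07 and 6.92 in liver tumors, against 8.03, 8.24 and 8.22 in normal liver, a change of -1.06 ± 0.16 (limma adjusted p 1.5e-04). None of the 3 pairs of groups overlapped.

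Slc12a3 was at 7.39, 6.97 and 6.91 in liver tumors, against 9.66, 8.04 and 7.40 in normal liver. Its change of -1.28 ± 0.41 (limma adjusted p 0.021) became -0.31 without normal livers 1 and 2 and did not pass (limma adjusted p 0.38). Umod ran from 6.67 to 8.27 in liver tumors, against 6.78 to 9.40 in normal liver, and its difference of -0.81 ± 0.54 did not pass. Without those 2 arrays, which leaves 1 normal liver, Cdh16 was at -0.28, Egf at -0.33 and Fxyd2 at 0.01, against -1.0, -0.68 and -0.94 with them. Ppp1r1b and Atp6v1b1 moved little, at -0.49 and -0.38, against -0.63 and -0.43 with those arrays, although none of these 5 passed. Trpm6 was lower in liver tumors by -0.77 ± 0.21.

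The 4 genes that were higher in liver tumors were Hsd11b2, Stk39, Slc8a1 and Wnk1. Hsd11b2 was at 9.14, 10.59 and 9.47 in liver tumors, against 8.30, 7.72 and 7.00 in normal liver, a rise of 2.06 ± 0.33 (4.17-fold, limma adjusted p 2.8e-04). Stk39 was at 9.66, 10.33 and 10.03 in liver tumors, against 8.73, 7.48 and 7.75 in normal liver, a rise of 2.02 ± 0.26 (4.06-fold, limma adjusted p 4.2e-05). In both genes every tumor was above every normal liver. Wnk1 rose by 0.52 ± 0.10. Slc8a1 was at 6.51, 8.58 and 7.66 in liver tumors, against 7.07, 6.24 and 6.52 in normal liver, so liver tumor 1 lay within the normal range; its rise of 0.97 ± 0.37 (limma adjusted p 0.043) was -0.10 without liver tumors 2 and 3 and did not pass without liver tumor 2, liver tumor 3, normal liver 2 or normal liver 3 (limma adjusted p 0.092 to 0.20).

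**Figure D5:**
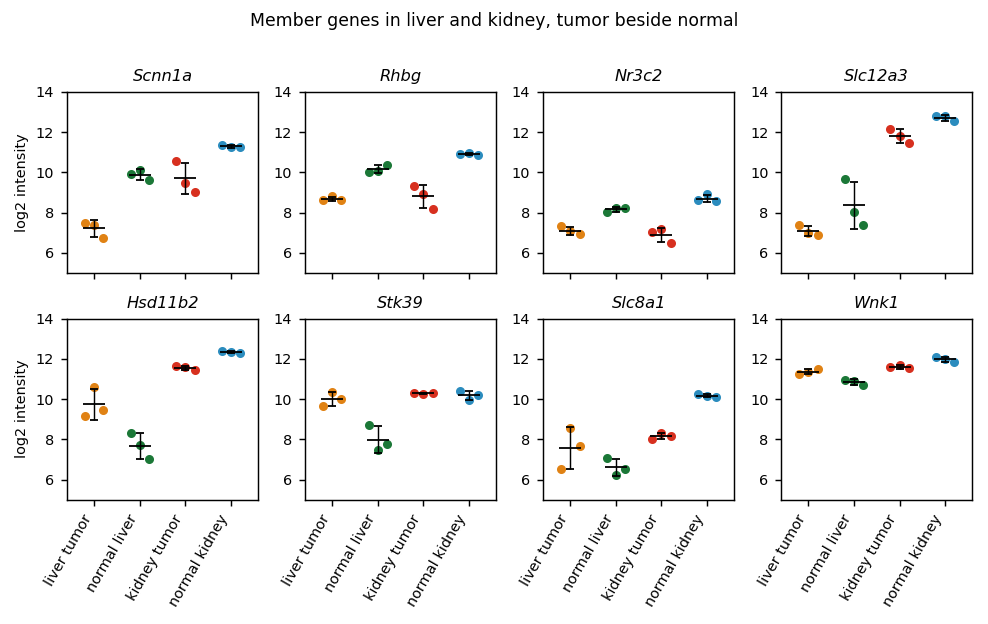
Log2 intensity of 8 genes in liver tumor, normal liver, kidney tumor and normal kidney; points are arrays and bars give the mean ± SD of 3 arrays. Scnn1a, Rhbg and Nr3c2 are lower in tumors of both organs, while Hsd11b2 and Stk39 are higher in liver tumors than in normal liver.

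The tumor effect itself was compared between the organs as kidney tumor minus normal kidney, less liver tumor minus normal liver. It was lower in the kidney for 20 of 37 members, beside 9.26% of all genes (16.8% in either direction), and the median difference was -1.29. In limma 0 members had a higher effect in the kidney, with 1 at an unadjusted p under 0.05, beside 7.54% of all genes called higher. Of the 20, 4 had a change below 0 in the kidney and above 0 in the liver: Slc8a1 differed by -2.99 ± 0.53, Hsd11b2 by -2.84 ± 0.47, Atp6v0d2 by -2.04 ± 0.33 and Wnk1 by -0.90 ± 0.14. Only Slc8a1 and Wnk1 were called in both organs, and Slc8a1 was at -0.10 in the liver without liver tumors 2 and 3. Hsd11b2 did not pass in the kidney (limma adjusted p 0.069). Atp6v0d2 did not pass in the liver (0.24 ± 0.23, limma adjusted p 0.40). In normal liver 28 of the 37 members, and 18 of these 20, were within 1 unit of the ES cell array. That need not mean low signal: Wnk1 was at 10.85 in normal liver and 11.18 on the ES cell array. The same share over all genes was not counted. Whether low signal in normal liver limited the falls in liver tumors was not tested, so the count says little about the members. Stk39 differed by -1.92 ± 0.36, with 0.10 ± 0.26 in the kidney and 2.02 ± 0.26 in the liver. Without kidney tumors 2 and 3, which leaves 1 kidney tumor, the median was -0.59, Scnn1a was at 1.96 and some calls ended.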

How the data were processed

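Total RNA of 16 mouse samples was hybridised to Affymetrix arrays after RNeasy Plus Mini extraction and WT Terminal Labeling, per the labels' protocols. Each deposited value is a linear intensity of a probe set on an array. How the authors corrected, summarised and normalized the intensities was not given in the sources used here, and the submitters' processing notes give only mm9. Medians of 191 to 226 per array show a shared scale. No detection calls came with the values, so differences that reach down to dim signal are understated. Precision is set by the number of arrays.

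The log2 was analysed as it stood. The platform annotation, which is old, named a single gene for 21789 of 28856 probe sets, several for 1621 and none for 5446; per gene the probe set of highest mean was kept, leaving 19938 genes. limma 3.58.1 in R 4.3.3 was fitted over all 16 arrays with 1 coefficient per group (10 residual and 2.66 prior degrees of freedom), 2-sided, Benjamini-Hochberg over all genes. On simulated data with 67 genes changed by 1, 86.6% were recovered for secondary kidney tumor and 83.6% for kidney tumor, both against normal kidney, and 59.7% for the difference between organs. Far fewer genes changed there than were called here, 68.6% and 49.8% of all genes in those kidney comparisons. The recovered shares therefore need not hold for these data. Promoter windows were counted with pandas and figures drawn with matplotlib.

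The members and gene lists were chosen with earlier results of these data known. Values per array are given for the genes of largest and smallest change in each segment in both kidney comparisons and for Umod, Slc12a1, Slc12a3, Aqp2 and Foxi1; those of Pvalb, Wnk1, Hsd11b2, Nr3c2, Slc8a1, Trpv5, Wnk3, Pax8 and the liver genes were chosen after their values were seen. Same-numbered arrays of compared groups had correlated deviations of -0.28 to 0.15, so replicate numbers were not taken as pairs. Alternatives covered scaling, dim genes, an offset, probe sets, moderation, array weights, the samples fitted, the replicate block and arrays left out; those leaving out arrays with muscle, fat, kidney or, in liver tumors, Xist signal were chosen after seeing the data.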

Additional observations from a re-analysis of the deposited data

Results flagged for a closer look

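For 20 of the 37 genes the tumor effect (tumor minus normal, log2) differed between kidney and liver by the test of the difference itself in limma, with an adjusted p under 0.05, and in each it was lower in the kidney. Over all genes 9.26% were called lower and 7.54% higher. In normal liver 18 of these 20 lay within 1 unit of the ES cell array. Whether low signal there limited the falls in liver tumors was not tested. The largest differences were in Slc8a1 (-2.99), Hsd11b2 (-2.84), Aqp3 (-2.04), Atp6v0d2 (-2.04), Bsnd (-2.01) and Stk39 (-1.92). Among intercalated cell genes they were -1.68 in Slc4a9, -1.66 in Atp6v1b1, -1.62 in Aqp6, -1.52 in Rhcg, -1.52 in Slc26a4 and -1.28 in Foxi1. Among principal cell genes they were -1.63 in Avpr2, -1.35 in Scnn1g, -1.29 in Fxyd4 and -0.74 in Nr3c2. The remaining differences were -1.37 in Wnk4, -1.33 in Casr, -1.20 in Egf and -0.90 in Wnk1. Those of Scnn1g, Egf and Nr3c2 lay nearest the threshold, with limma adjusted p of 0.047, 0.046 and 0.040. In a fit on the contrast's groups alone these and Aqp6 did not pass (limma adjusted p 0.081, 0.078, 0.073 and 0.056). Leaving out kidney tumors 2 and 3 leaves 1 kidney tumor. The differences of Slc4a9, Rhcg, Casr, Foxi1 and Aqp6 were then -0.97, -0.84, -0.73, -0.72 and -0.58.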

How the results depend on the processing

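Most counts and medians moved little under the alternatives. The median change in secondary kidney tumors against normal kidney was -3.72 with quantile normalization, -4.04 with arrays centred on their medians, -3.96 without the dimmest genes, -3.34 with 50 added to the intensity and -3.62 without secondary tumor 1 and normal kidney 2; leaving out 1 array gave -3.93 to -3.71. The median of normal kidney against normal liver was 3.54 without the dimmest genes and 2.98 with 50 added. Fitting only the contrast's groups called 1 member higher in secondary than in kidney tumors. Without the kidney tumor arrays with Xist signal, the median in kidney tumors was -1.0, and the difference between organs had 10 members lower, 1 higher and a median of -0.59. Array weights called 1 member higher in that difference, and leaving out 1 array called 0 to 1. In the liver, 4 members were lower without the Xist arrays of liver tumors, with Slc8a1 at -0.10, and 4 without normal livers 1 and 2, with a median of -0.23 and Fxyd2 at 0.0080; leaving out 1 array gave 5 to 11. The causes were not tested. The replicate block left 36 members lower in secondary tumors and 32 in kidney tumors, and gave 22 rather than 20 in the difference between organs; of the calls named in the text, Slc8a1 in the liver was lost (limma adjusted p 0.054). Of single-gene values under alternatives, 3820 stayed on their side of the threshold, 133 lost and 60 gained a call, and 2 that had been called changed sign (Slc8a1 and Fxyd2 above); some uncalled values near 0, such as Stk39, also changed sign. Arrays near background understate a decrease, and 3 arrays a group limit small changes.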
